A study of Mus musculus with 6 samples.

Results

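The genes examined here handle fatty acids at the surface and in the cytosol of heart cells. They were 10 genes chosen by name: Fabp3, Fabp4, Fabp5, Cd36, Lpl, Vldlr, Slc27a1, Slc27a2, Acsl1 and Dbi. Every array probe other than a control whose gene name in the scanner files equals 1 of these names was taken, which gave 20 of 41174 probes. The arrays compare hearts of wild type (WT) mice with hearts of TG-PKR1 mice, 3 hearts per group and 1 Agilent single-dye array per heart. TG-PKR1 mice carry a transgene for prokineticin receptor-1 (PKR1) driven by the αMHC promoter, which is active in cardiomyocytes, and WT mice carry none. All 6 mice were male and 12 weeks old, the RNA came from heart tissue with all its cell types, and the methods give a C57BL6/J background for the colony. The number of founder lines behind the transgenic hearts was not given in the sources used here. Hearts are lettered A to C within each group, with no pairing across groups.

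Heart muscle burns mainly fatty acids, which reach it from the blood bound to albumin or within lipoprotein particles. Lipoprotein lipase, bound at the capillary wall, frees fatty acids from the particles, and the VLDL receptor holds or takes up the particles themselves. CD36 and the fatty acid transport proteins of the Slc27 family carry fatty acids across membranes, FABP proteins bind them in the cytosol, Acsl1 activates them to acyl-CoA, and the product of Dbi binds the acyl-CoA formed. FABP3 is the muscle form of the binding protein, whereas FABP4 is typical of fat cells and is also made by capillary endothelium and macrophages. Genes of this system in several tissues are targets of PPAR nuclear receptors, which bind DNA at repeats of the letters AGGTCA.

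RefSeq promoter windows (GRCm38.p6, 250 bases before to 50 bases after a start site) were found for 7 of the 10 genes, in 12 windows. Fabp4, Fabp5 and Lpl were not matched. The letters AGGTCA, on either strand, stood in 1 window of Slc27a2 and in 1 of Cd36, at 220 and 228 bases before the start site. Of all 32851 windows in the RefSeq table, 16.3% hold these letters. A direct repeat of AGGTCA with 1 base between the copies, on either strand, was in 0.0396% of all windows and in 0 of the 12. The windows of Slc27a2, the member with the largest difference between the groups, and of Cd36 and Fabp3, from the supply genes of muscle and capillaries, are given 5′ to 3′ on the strand of the gene, with the AGGTCA letters, read here as TGACCT, in capitals. They lie at chr2:126552774-126553073 (plus strand), chr5:17835847-17836146 (minus strand) and chr4:130308488-130308787 (plus strand).
Slc27a2: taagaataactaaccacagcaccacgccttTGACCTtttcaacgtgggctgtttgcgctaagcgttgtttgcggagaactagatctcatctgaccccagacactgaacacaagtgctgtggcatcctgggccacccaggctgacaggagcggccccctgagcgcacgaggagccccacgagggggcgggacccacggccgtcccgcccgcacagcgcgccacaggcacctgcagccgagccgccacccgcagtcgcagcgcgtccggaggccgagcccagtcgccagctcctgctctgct
Cd36: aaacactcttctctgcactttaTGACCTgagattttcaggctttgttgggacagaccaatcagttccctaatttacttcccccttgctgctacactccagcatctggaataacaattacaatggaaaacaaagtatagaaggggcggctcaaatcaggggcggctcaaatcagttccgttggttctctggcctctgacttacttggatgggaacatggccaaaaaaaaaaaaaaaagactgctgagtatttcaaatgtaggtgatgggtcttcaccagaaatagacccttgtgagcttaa
Fabp3: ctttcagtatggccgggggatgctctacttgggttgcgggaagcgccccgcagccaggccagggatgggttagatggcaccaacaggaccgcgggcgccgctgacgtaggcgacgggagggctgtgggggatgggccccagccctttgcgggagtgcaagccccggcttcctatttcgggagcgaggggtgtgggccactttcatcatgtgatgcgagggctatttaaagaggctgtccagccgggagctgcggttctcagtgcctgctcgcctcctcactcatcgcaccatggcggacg
The match is a description of the letters, and binding was not measured.

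The arrays differed in how they had been scanned. An extended dynamic range had been used for WT heart A and TG-PKR1 hearts B and C, and single scans for the other 3. Dividing each array's 75th percentile of spot signal by its median local background gave 11.4 to 14.1 for the former and 2.08 to 3.97 for the latter. WT heart B and TG-PKR1 heart A shared a slide. Between 19662 and 24944 probes per array were well above background by the scanner software. The probe of Prokr1, which encodes PKR1, was near background on all 6 arrays and gave no check of the genotypes.

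Of the 20 member probes, 17 probes of 9 genes were well above background on 6 of 6 arrays and were among the 20000 brightest probes, over which the groups were compared with limma. The other 3 were the probe of Fabp5 and 2 of the 3 probes of Slc27a2. None of the 20 was saturated. limma called 0 of the 17 probes at an adjusted p under 0.05, whereas it called 0.095% of the 20000 probes lower in TG-PKR1 hearts (19 probes) and 0 higher. SAM (significance analysis of microarrays), read at an estimated false discovery rate of 0%, called 1 member probe, that of Slc27a2, lower, against 0.281% of all probes, and 0 higher. At an unadjusted limma p under 0.05, there were 5 member probes, all lower in TG-PKR1 hearts, against 1.66% of all probes. With arrays scaled to their 75th percentile without loess, 1 member probe, that of Slc27a2, was below that p. In the same 5 probes, those of Fabp4 (3 probes), Slc27a2 and Dbi, every TG-PKR1 heart was below every WT heart. Over all probes with 6 values, 2.73% had all TG-PKR1 hearts below all WT hearts and 2.68% had them all above, and 0 member probes were of the second kind. The median difference over the 17 probes was -0.06, and over all 20000 probes it was 0.03. All values below are normalized log2 signals, each difference is TG-PKR1 minus WT, and positions are mm8 coordinates from the files. With 3 hearts against 3, a two-sided exact permutation test of 1 probe cannot give a p below 0.1.

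**Figure D1:**
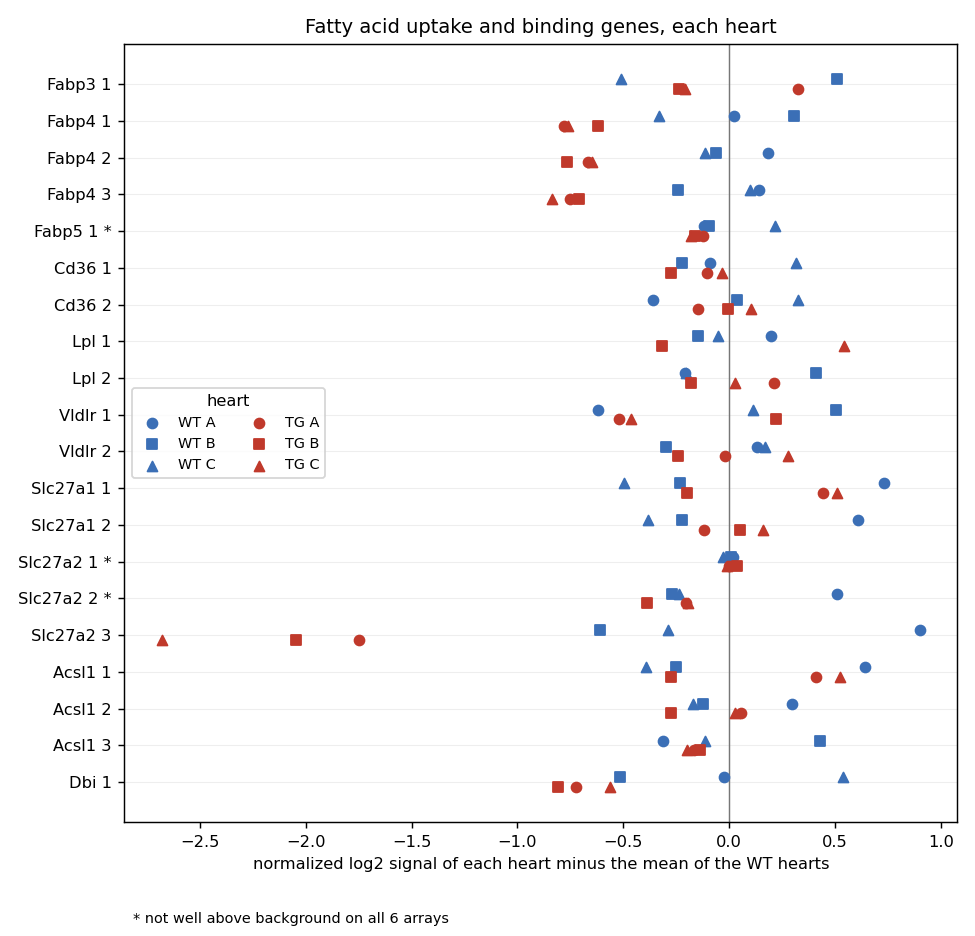
Each row is 1 member probe, numbered by position within its gene, and each point is 1 heart, plotted as its normalized log2 signal minus the mean of the WT hearts, with WT in blue, TG-PKR1 in red and the replicate letter as the shape. The red points lie to the left of all blue points for the 3 Fabp4 probes, Slc27a2 probe 3 and Dbi, and are mixed with them in the other 12 probes that were well above background on 6 arrays.

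Fabp4, the binding protein of fat cells, had lower signals in TG-PKR1 hearts with each of its 3 probes, by 0.69 to 0.77 on the log2 scale. All 3 lie on the minus strand of chromosome 3. The first, from 10186983 to 10187043, read 16.61, 16.89 and 16.25 in WT hearts A to C and 15.80, 15.96 and 15.82 in TG-PKR1 hearts A to C, the order used throughout. The second, from 10187065 to 10187794, read 16.63, 16.38 and 16.33 in WT and 15.78, 15.68 and 15.79 in TG-PKR1 hearts. The third, from 10190974 to 10191033, read 11.25, 10.87 and 11.21 in WT and 10.36, 10.40 and 10.27 in TG-PKR1 hearts. In all 3 probes the lowest WT heart stood above the highest TG-PKR1 heart, by 0.29, 0.53 and 0.47, and the WT hearts were spread more widely than the TG-PKR1 hearts. The SD was 0.32, 0.16 and 0.21 in WT and 0.09, 0.06 and 0.06 in TG-PKR1 hearts (n = 3 each).

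The 3 Fabp4 differences were -0.72 (SE 0.19), -0.69 (SE 0.15) and -0.77 (SE 0.16), which put the TG-PKR1 level at 60.7%, 61.8% and 58.8% of the WT level. The 95% interval of the second probe ran from 48.8% to 78.2%. None passed the limma threshold over 20000 probes (adjusted p = 0.815, 0.372 and 0.334), and SAM called 0 of the 3. SAM did call the third probe lower with quantile normalization, with normexp and quantile normalization and with the authors' table. With arrays scaled to their 75th percentile without loess, the groups overlapped in all 3 probes and the differences were -0.48, -0.46 and -0.64. Within the extended-range arrays the differences were -0.71, -0.89 and -0.92, and within the single-scan arrays -0.77, -0.58 and -0.68. On the shared slide, TG-PKR1 heart A was below WT heart B by 1.09, 0.60 and 0.51 on the log2 scale. The 3 probes read the same transcript and are not replicates of the comparison.

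Slc27a2 encodes a fatty acid transport protein that also activates very long chain fatty acids, and is best known from liver and kidney. Its probe 3, on the plus strand of chromosome 2 from 126279255 to 126279314, had the largest difference of the 20 member probes. It read 9.42, 7.91 and 8.24 in WT and 6.78, 6.48 and 5.85 in TG-PKR1 hearts. The WT hearts lay at least 1.14 above the highest TG-PKR1 heart, and WT heart A was the highest heart. The difference was -2.16 (SE 0.39), a TG-PKR1 level of 22.4% of WT with a 95% interval from 12.1% to 41.6%. SAM called this probe lower, and limma did not (adjusted p = 0.184). Its spread within groups was larger than that of 98.2% of the probes tested. Without WT heart A the difference was -1.71, limma gave an adjusted p of 0.307, and SAM did not call the probe, nor did it without WT heart C, TG-PKR1 heart B or TG-PKR1 heart C, with all probes, with loess on the median profile itself or with a filter of 3 arrays above background. limma did call it after quantile normalization in place of loess (adjusted p = 0.0359).

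The Slc27a2 signal was low on the TG-PKR1 arrays. It was 1.32, 2.52 and 1.73 times the local background there, and 26.5, 2.10 and 4.04 times on the WT arrays. The scanner software nevertheless put it well above background on 6 of 6 arrays. The difference was -3.26 within the extended-range arrays, where WT heart A was the only WT heart. It was -1.30 within the single-scan arrays, where TG-PKR1 heart A was the only TG-PKR1 heart. Both were negative, and for their sizes, scan mode and differences between single hearts cannot be told apart. With background-subtracted signals scaled to the 75th percentile it was -3.60. The other 2 probes named Slc27a2 gave no level. The probe from 126212795 to 126212854, which the files place on the minus strand, was well above background on 0 of 6 arrays, and the probe from 126256120 to 126256179 on 1 of 6, WT heart A, where it read 6.64 against 5.74 to 5.94 in the other 5 hearts.

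Dbi encodes the acyl-CoA binding protein, which carries activated fatty acids in the cytosol of many cell types. Its probe, on the minus strand of chromosome 1 from 121941036 to 121943947, read 13.77, 13.28 and 14.34 in WT and 13.07, 12.99 and 13.23 in TG-PKR1 hearts. WT heart B was above the highest TG-PKR1 heart by 0.05, so the groups were parted by less than the spread within either (SD 0.53 in WT and 0.12 in TG-PKR1, n = 3 each). The difference was -0.70 (SE 0.25), a level of 61.6% of WT with a 95% interval from 41.3% to 91.9%. It did not pass the threshold (limma adjusted p = 0.9999) and was not called by SAM. It was -0.66 within the extended-range arrays, -0.74 within the single-scan arrays and -0.21 on the shared slide. Without WT heart C it was -0.43, and without WT heart B it was -0.96.

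Fabp5, a binding protein of skin, macrophages and endothelium, could not be assessed. Its probe, on chromosome 3 from 9998905 to 9998964, was well above background on 1 of 6 arrays and read 6.03, 6.05 and 6.36 in WT and 6.02, 5.98 and 5.96 in TG-PKR1 hearts. The difference of -0.16 (SE 0.10, limma p adjusted over all 41174 probes = 0.99995) is between signals at the level of the background.

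**Figure D2:**
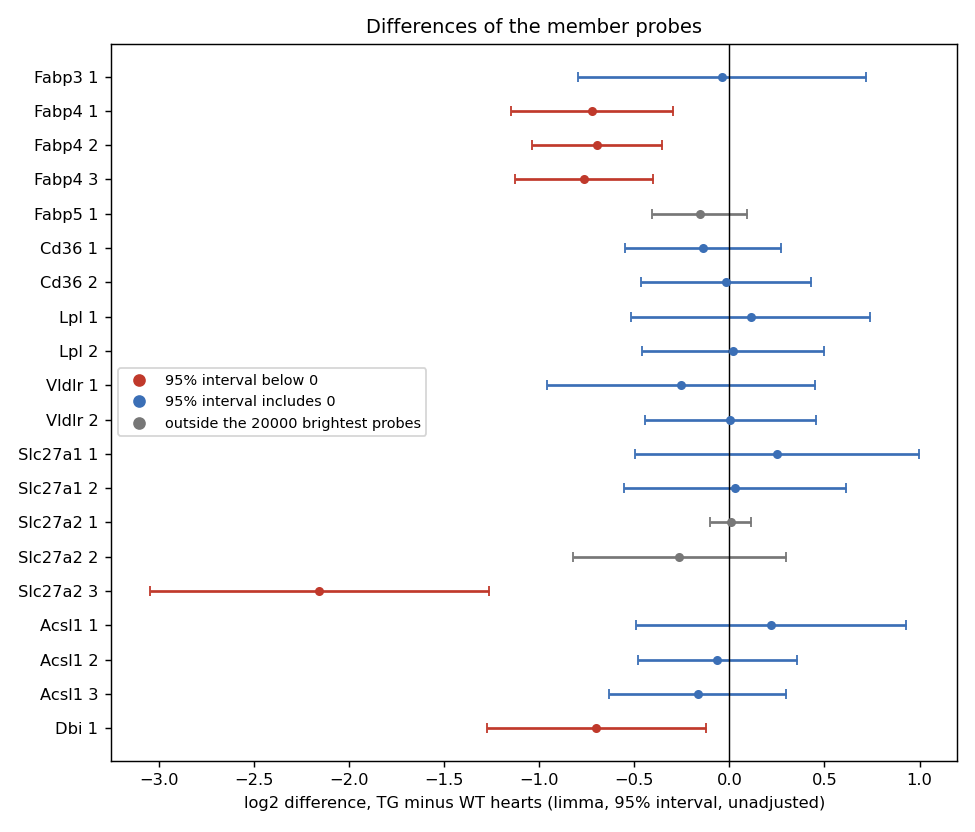
Points are differences in log2 signal (TG-PKR1 minus WT) for the 20 member probes, with 95% intervals from limma that are not adjusted for the number of probes. The intervals of the 3 Fabp4 probes, Slc27a2 probe 3 and Dbi lie below 0, those of the other 12 probes among the 20000 brightest (blue) include 0, and the 3 grey probes are at or near background.

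For the genes of supply from blood to muscle, the hearts of the groups overlapped in all probes. Fabp3, the cytosolic binding protein of heart and skeletal muscle, has its probe on the plus strand of chromosome 4 from 129817668 to 129817727. It read 17.70 and 16.68 in WT hearts B and C and 17.51, 16.95 and 16.98 in the TG-PKR1 hearts. The spot of WT heart A was marked as an outlier by the scanner software and left out, so 5 hearts entered this value. The TG-PKR1 hearts lay between the 2 WT hearts, and the difference was -0.04 (SE 0.32, limma adjusted p = 0.9999). Its 95% interval, from 57.5% to 164.4% of the WT level, includes the size seen for Fabp4. With the outlier spot kept, the difference was 0.01.

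CD36 is the main fatty acid translocase of heart muscle and capillary endothelium. Its 2 probes lie on the minus strand of chromosome 5, from 17294606 to 17294665 and from 17295116 to 17297548. The first read 13.12, 12.99 and 13.53 in WT and 13.11, 12.94 and 13.18 in TG-PKR1 hearts. The second read 13.11, 13.50 and 13.79 in WT and 13.32, 13.46 and 13.57 in TG-PKR1 hearts. WT heart C was the highest heart with both probes, and the TG-PKR1 hearts lay among or just below the WT hearts. The differences were -0.14 (SE 0.18) and -0.02 (SE 0.20), with 95% intervals from 68.3% to 120.9% and from 72.5% to 134.9% of the WT level.

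Lpl encodes lipoprotein lipase. Its brighter probe, on the plus strand of chromosome 8 from 71835357 to 71835416, read 16.16, 16.77 and 16.16 in WT and 16.57, 16.18 and 16.39 in TG-PKR1 hearts. All TG-PKR1 hearts lay within the WT range, and the difference was 0.02 (SE 0.21), with an interval from 72.7% to 141.0% of WT. The other probe, from 71830140 to 71830199, read 14.92, 14.58 and 14.67 in WT and 14.41 and 15.26 in TG-PKR1 hearts B and C, and the spot of TG-PKR1 heart A was left out as an outlier. Those 2 TG-PKR1 hearts were the lowest and the highest of the 5, and the difference of 0.11 (SE 0.27) became -0.15 with the outlier spot kept. With arrays scaled to their 75th percentile without loess, the differences of the brighter and the other probe were 0.25 and 0.61.

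Slc27a1 encodes FATP1, the fatty acid transport protein of muscle and fat. Its probes lie on the plus strand of chromosome 8, from 74515346 to 74515405 and from 74516231 to 74516290. The first read 11.30, 10.34 and 10.08 in WT and 11.01, 10.37 and 11.08 in TG-PKR1 hearts, and the second 11.75, 10.92 and 10.76 in WT and 11.02, 11.20 and 11.31 in TG-PKR1 hearts. WT heart A was above all other hearts with both, and WT heart C was the lowest. The differences were 0.25 (SE 0.33) and 0.03 (SE 0.26). They were of opposite sign within the scan modes, at -0.57 and -0.50 within the extended-range arrays and 0.80 and 0.18 within the single-scan arrays.

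Set side by side, Fabp3, Cd36, Lpl and Slc27a1, each by its brightest probe, differed by -0.04 to 0.03, with a median of 0.00 over the 4 genes. After subtraction of each gene's WT mean, their median was -0.21, 0.22 and -0.29 in the WT hearts and 0.04, -0.09 and 0.06 in the TG-PKR1 hearts. The TG-PKR1 hearts lay inside the WT range. Fabp4, Fabp5 and Slc27a2, taken the same way, differed by -2.16 to -0.16, with a median of -0.72, which is the value of Fabp4. Their median was 0.02, -0.10 and -0.29 in WT and -0.78, -0.62 and -0.76 in TG-PKR1 hearts, so these did not overlap. The TG-PKR1 medians are all values of Fabp4, and the median of WT heart B is the value of Fabp5. Without Fabp5, which was at background, the median of Fabp4 and Slc27a2 was -1.44. The difference between these sets was not tested, because the sets were drawn up with earlier results of these hearts known. The median of the supply genes changed its size with the scaling and was 0.21 when arrays were scaled to their 75th percentile without loess. The median of Fabp4, Fabp5 and Slc27a2 was -0.67 with that scaling.

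Vldlr and Acsl1 also overlapped between the groups. Vldlr, which takes up triglyceride-rich particles, has its probes on the plus strand of chromosome 19. The probe from 27316649 to 27316708 read 13.65, 14.77 and 14.38 in WT and 13.75, 14.49 and 13.81 in TG-PKR1 hearts, a difference of -0.25 (SE 0.31). It was 0.50 within the extended-range arrays and -0.83 within the single-scan arrays. The probe from 27320976 to 27321035 read 11.95, 11.53 and 11.99 in WT and 11.80, 11.58 and 12.10 in TG-PKR1 hearts, a difference of 0.01 (SE 0.20).

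Acsl1, the main acyl-CoA synthetase of heart muscle, has 3 probes within chromosome 8 from 48033237 to 48034754, all on the plus strand. The brightest, from 48034695 to 48034754, read 15.41, 16.15 and 15.61 in WT and 15.56, 15.59 and 15.52 in TG-PKR1 hearts. Its TG-PKR1 hearts were close to each other (SD 0.03, n = 3) and within the WT range (SD 0.39, n = 3), and the difference was -0.17 (SE 0.20). The other 2 probes differed by 0.22 (SE 0.31) and -0.06 (SE 0.18), and the former by -0.52 within the extended-range arrays and 0.73 within the single-scan arrays. The probes of this gene did not order the hearts alike, since WT heart A was the lowest heart with the brightest probe and the highest with the other 2. Over the 12 probes that overlapped, differences ran from -0.25 to 0.25 and unadjusted limma p from 0.432 to 0.980.

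The members that were lower were set beside markers of the cell types a heart sample can hold, since in RNA from whole hearts fewer cells of a type and less RNA per cell cannot be told apart. Of 10 adipocyte markers that could be tested, 10 had all TG-PKR1 hearts below all WT hearts, SAM called 7 lower and limma 3, and the median difference was -1.69. The log2 of their summed signal was 16.55, 16.58 and 16.15 in WT and 15.06, 15.18 and 14.59 in TG-PKR1 hearts. Cfd and Pnpla2, the markers of this list with the highest signal, differed by -1.81 and -0.54. Plin1 and Cidec, coat proteins of fat droplets, had the most negative differences, -2.25 and -2.02 (limma adjusted p = 0.0339 and 0.0386). Over 19 settings their differences ran from -2.43 to -2.04 and from -2.24 to -1.82, and limma called Plin1 in 9 and Cidec in 7. limma did not call Cidec with any 1 of the 6 hearts left out, and called Plin1 only without WT heart B or TG-PKR1 heart B among these. SAM called Plin1 in 17 of 17 settings and Cidec in 15 of 17, not with all probes or without TG-PKR1 heart B. Lep lay outside the 20000 probes, with a signal well above background on 4 of 6 arrays. Of 9 brown adipocyte markers 5 had all TG-PKR1 hearts below all WT hearts, SAM called 4 lower and limma 1, and the median was -1.09. The 4 were Ucp1 (-3.23, limma adjusted p = 0.0445), Elovl3 (-2.05), Cidea (-1.77) and Dio2 (-1.39). The mean of 1 marker, Ppargc1a, was higher (0.49). Their summed signal, to which Cox7a1 and Cox8b of heart muscle give most, was 18.02, 18.44 and 17.79 in WT and 17.96, 17.82 and 17.60 in TG-PKR1 hearts.

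Fabp4, Slc27a2 and Dbi were set beside these markers because they were lower in the TG-PKR1 hearts. Being low in the same 3 hearts as the adipocyte markers follows from that choice. The part of fat cells in these differences was not tested. The Fabp4 differences were -0.77 to -0.69, and 8 of the 10 adipocyte markers had differences below these, a contrast that was not tested. The endothelial markers, of cells that also make Fabp4, were overlapping in 12 of 12, with 6 lower and 6 higher means and a median of 0.00. The log2 of their sum was 15.03, 15.10 and 15.01 in WT and 14.96, 15.08 and 14.84 in TG-PKR1 hearts. Of the macrophage markers 12 of 12 overlapped, with 8 lower and 4 higher means, a median of -0.09 and sums of 14.93 to 15.67 in WT and 14.75 to 15.18 in TG-PKR1 hearts. The cardiomyocyte markers, 12 of 12 overlapping, had 1 lower and 11 higher means, a median of 0.07 and sums of 19.84 to 20.38 in WT and 19.91 to 20.67 in TG-PKR1 hearts. limma and SAM called 0 genes of the endothelial, macrophage, cardiomyocyte, smooth muscle and fibroblast lists, and 0 had an unadjusted limma p under 0.05. The means were lower for 9 of 12 fibroblast and 3 of 10 smooth muscle markers. All 12 cardiomyocyte markers were well above background on 6 of 6 arrays. The endothelial and fibroblast markers met this too, so it is no check of the heart label.

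**Figure D3:**
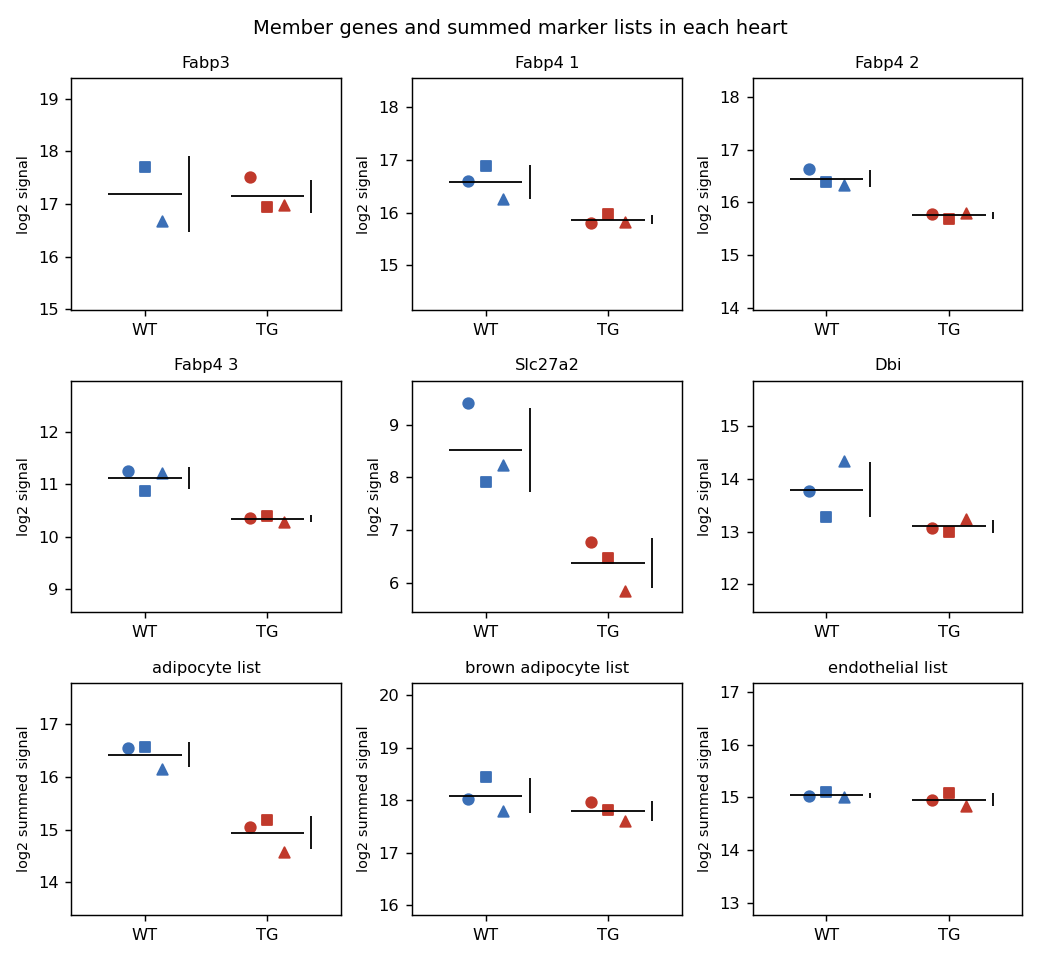
Panels show the normalized log2 signal of member probes, or the log2 of the summed signal of a marker list, in each heart (circle A, square B, triangle C, and no Fabp3 value for WT heart A), with the mean as a horizontal line and the SD as a vertical line, all on axes of equal length. Fabp4, Slc27a2, Dbi and the sum of the adipocyte list are lower in all 3 TG-PKR1 hearts. Fabp3 and the sums of the brown adipocyte and endothelial lists overlap. The brown adipocyte sum is mostly signal of Cox7a1 and Cox8b of heart muscle. Of the 9 brown adipocyte markers, 5 had all TG-PKR1 hearts below all WT hearts.

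Over the 6 hearts, the gene most like Fabp4 in pattern was Adipoq, the fat cell hormone adiponectin (Pearson r = 0.992 with the mean of the 3 Fabp4 probes), followed by Cxcl13, Rbp4, Gpat4 and Vat1l (r = 0.988 to 0.989). The genes most like Slc27a2 were Sec14l4, Aacs, Arxes2, Zdhhc2 and Slc5a3 (r = 0.991 to 0.995). Over the 5 hearts with a Fabp3 value, the genes most like it were Slc25a4, the nucleotide carrier of muscle mitochondria, with Mepe, CYTB, Myh8 and Cyc1 (r = 0.992 to 0.996). These r are the highest among 18331 to 18334 probes in 5 or 6 hearts, share the arrays and the normalization, and are given as a description.

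The genes that act with the members were taken from lists written by hand, with 1 probe per gene. Of 10 partners of the lipase and the lipoprotein receptors, the mean of 8 was lower in the transgenic group and the median was -0.16. SAM called 1 of them, Apoc1, a small apolipoprotein of lipoprotein particles, which read 12.45, 11.09 and 11.08 in WT and 9.77, 9.43 and 8.24 in TG-PKR1 hearts. Its difference was -2.40 (SE 0.47, limma adjusted p = 0.257), and SAM made the call in 12 of 17 settings, not with all probes or the filter of 3 arrays above background, and not without WT heart A, WT heart C or TG-PKR1 heart B. At an unadjusted limma p under 0.05 there were 2 genes of this list. Angptl4, which inhibits lipoprotein lipase, was the only other one without overlap and is named after its values were seen. It read 11.87, 10.71 and 11.02 in WT and 10.54, 9.61 and 10.19 in TG-PKR1 hearts, a difference of -1.09 (SE 0.33, limma adjusted p = 0.9999). Lmf1, a factor for folding of the lipase (Tmem112 in the files), had the highest difference of the list at 0.07, and Lipc, Lipg and Lrp8 were well above background on 0 of 6 arrays.

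Of the other binding proteins, 6 of 13 could be tested. They differed by -0.36 (Acbd4) to 0.14 (Acbd6), both relatives of Dbi, with a median of -0.03, and limma and SAM called 0, also at an unadjusted limma p under 0.05. Acbd4 alone had all TG-PKR1 hearts below all WT hearts (11.81, 11.87 and 11.83 in WT, 11.23, 11.74 and 11.46 in TG-PKR1 hearts). The liver and intestinal forms Fabp1 and Fabp2 were well above background on 2 and 3 of 6 arrays and were not among the 20000 probes. Of 14 other fatty acid transport and acyl-CoA synthetase genes, 10 could be tested. Among these, 1 passed in limma and SAM, and 2 had an unadjusted limma p under 0.05. This was Acsm3, a synthetase for medium chain fatty acids, which read 7.97, 8.13 and 8.02 in WT and 6.78, 6.54 and 6.18 in TG-PKR1 hearts, a fall with a difference of -1.54 (SE 0.18) and an adjusted p of 0.0339 in limma. The limma call was lost with scan mode as a block (difference -1.456, adjusted p = 0.189). It was also lost without any 1 of the 6 hearts (differences -1.684 to -1.385, adjusted p = 0.0727 to 0.183), while SAM made its call in 15 of 17 settings. With the processed signal the difference was -2.78. The other gene under the unadjusted p, Acss2, an acetyl-CoA synthetase, differed by -0.57 (SE 0.17, limma adjusted p = 0.9999) without overlap and is named after its values were seen. The highest difference of the 10 was 0.18, for Slc27a4, and the median was -0.17. Slc27a3, Slc27a5, Acsbg1 and Mfsd2a were not among the 20000 probes. Mfsd2a (-0.87) had all TG-PKR1 hearts below all WT hearts, and Acsbg1 (0.16) had them all above. Each was well above background on 3 of 6 arrays. The long chain synthetases Acsl3, Acsl4, Acsl5 and Acsl6 overlapped between the groups and differed by -0.42, -0.16, -0.64 and -0.06.

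Of 12 genes of acyl-CoA hydrolysis and entry into mitochondria, limma and SAM called 0 (1 at an unadjusted limma p under 0.05), the median was 0.01, and Cpt1b and Cpt2, which carry fatty acids into muscle mitochondria, differed by 0.06 and -0.15. The extremes were Acaca, acetyl-CoA carboxylase, at -1.64 (SE 0.34, limma adjusted p = 0.317) and Acot2, a mitochondrial thioesterase, at 0.32. Of 12 regulators of uptake genes, SAM called 1, Pparg, the fat cell PPAR, with a difference of -0.98 (SE 0.15, limma adjusted p = 0.0962). SAM made this call in 13 of 17 settings, not with 75th percentile scaling or without WT heart C, TG-PKR1 heart B or TG-PKR1 heart C, and limma called Pparg with normexp and quantile normalization (adjusted p = 0.0477). Ppara, the PPAR of heart muscle, differed by 0.17, and Tcf15, a factor of heart capillary endothelium, had the highest difference of the list at 0.56 (SE 0.43). Its spots were left out as outliers in heart A of both groups, and it read 11.47 and 11.20 in WT hearts B and C and 12.57 and 11.21 in TG-PKR1 hearts B and C, so only TG-PKR1 heart B stood above the WT hearts. The median of the list was 0.12, and limma called 0 of the 12 (1 at an unadjusted p under 0.05). For comparison, 41.8% of all 20000 probes were lower by mean in the transgenic group.

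**Figure D4:**
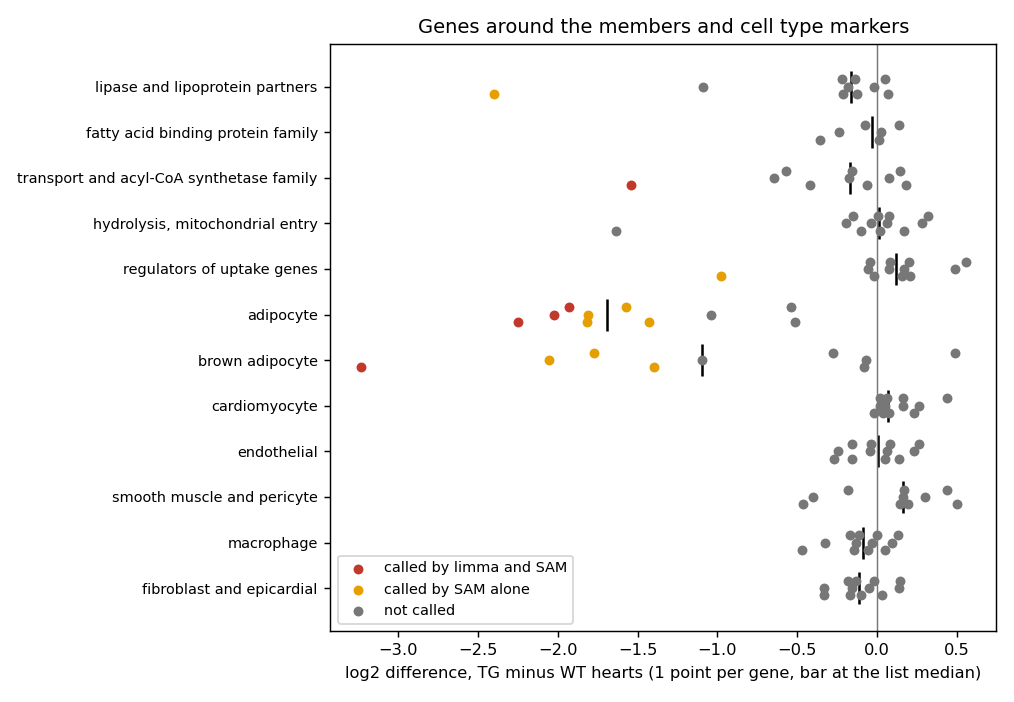
Each point is the difference in log2 signal (TG-PKR1 minus WT) for 1 gene of a list, black bars are list medians, and colours mark genes called by limma and SAM (red) or SAM alone (orange). Points left of -1 in the first 5 lists are single genes, Apoc1, Angptl4, Acsm3 and Acaca, whereas most genes of the adipocyte list lie left of -1.

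**Figure D5:**
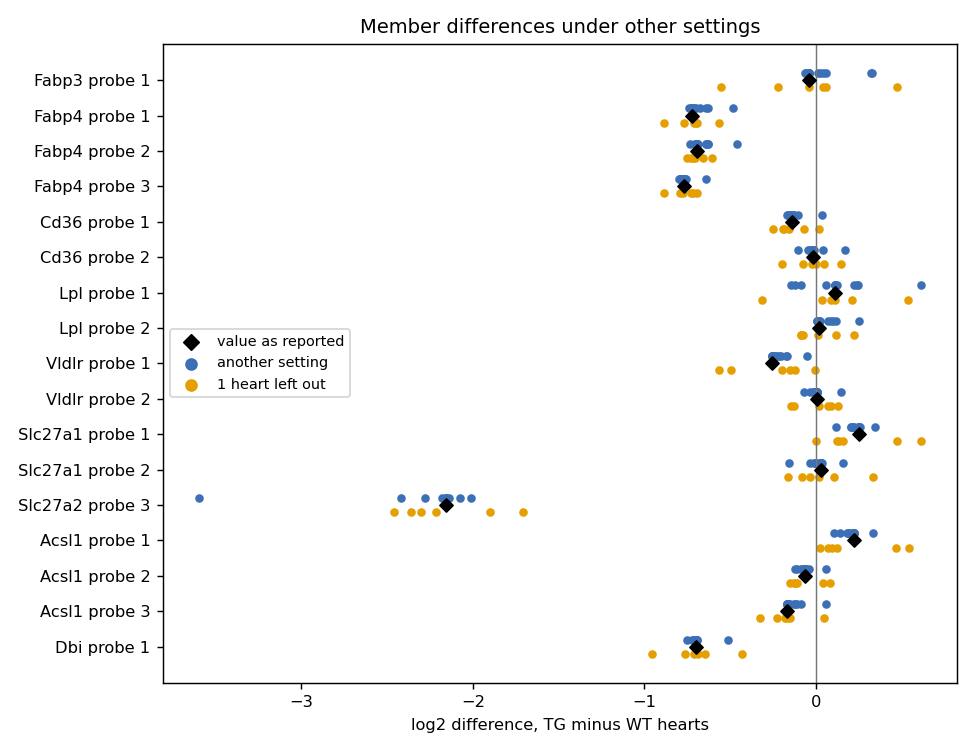
For the 17 member probes among the 20000 brightest, the black diamond is the log2 difference as reported, blue points are other settings of signal, normalization, filter or test, and orange points leave out 1 heart. The points of Fabp4, Slc27a2 and Dbi stay below 0, and those of Fabp3, Cd36, Lpl, one probe each of Slc27a1 and Vldlr, and 2 of Acsl1 lie on both sides of it.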

How the data were processed

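Heart RNA of 3 WT and 3 TG-PKR1 mice was measured on single-dye Agilent arrays. The authors deposited scanner fluorescence intensity values per spot, extracted with Agilent Feature Extraction, and a table of log2 values, LOWESS-normalized against a median profile and averaged over replicate probes. All 6 value columns of the table were matched to a heart. Here, log2 median signals without background subtraction were normalized by loess (span 0.3, 4 iterations) of each array's difference from the median profile. Outlier spots were dropped, repeated spots averaged and the 20000 highest medians retained, and values of members outside them come from a fit over all 41174 probes. limma 3.58.1 (R 4.3.3) compared the groups, with Benjamini-Hochberg adjustment at 0.05 over all probes tested. SAM used all 20 assignments of the hearts, s0 of 0.195 and delta of 0.93, the smallest with an estimated false discovery rate of 0%. Precision is limited by 3 arrays per group and by signal over background.

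Names of other genes came from RefSeq, by accession for 15399 of the 20000 probes and by symbol or synonym for 2979, and 1622 kept the name in the files. Genes named were all members, list genes called by limma or SAM, the extremes of each list of pathway genes, the 5 genes most like Fabp4, Slc27a2 and Fabp3, and of the marker lists those that bear on a member. The members and the 12 other lists were chosen with earlier results of these data known. The alternatives are those of the closing section. The procedure was tested on simulated data with changes larger than those of Fabp4 and Dbi and with no effect of scan mode. That test does not give the power for differences of the size of Fabp4 and Dbi. Exon and intron positions of the probes were not analysed here.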

Additional observations from a re-analysis of the deposited data

How the results depend on the processing

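Fabp4 (3 probes) and Dbi were lower in 18 of 18 settings, and Slc27a2 was lower in 17 of 17. Adjusted p ranged from 0.150 to 1 for Fabp4, from 0.514 to 1 for Dbi and from 0.0274 to 1 for Slc27a2. limma called 0 member probes except with normexp and quantile normalization or quantile normalization alone, where it called 1, Slc27a2 (-2.01, adjusted p = 0.0274, and -2.07, adjusted p = 0.0359). SAM, with the reported setting counted, called Slc27a2 in 9 of the 16 settings that gave it a value, and Fabp4 probe 3 in 3 of 17. It did not call Slc27a2 with all probes, loess on the median profile itself or the filter of 3 arrays above background, or without WT heart A, WT heart C, TG-PKR1 heart B or TG-PKR1 heart C. All TG-PKR1 hearts were below all WT hearts in 9 of 11 sets of values for the 3 Fabp4 probes together and in 10 of 11 for Dbi. Both overlapped under 75th percentile scaling, and Fabp4 probe 1 also with the processed signal. Slc27a2 had no value in the authors' table and did not overlap in the other 10.

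The count of 19 probes called lower was 33 with normexp and quantile normalization, 33 with quantile normalization, 31 with trend and robust settings, 56 with SAM, 2 with loess on the median profile itself (chosen after seeing the data), and 0 with 75th percentile scaling, all probes, the filter of 3 arrays above background, the authors' table or scan mode as a block. In these last 5, 250, 577, 387, 276 and 300 probes were lower at an unadjusted limma p under 0.05. The limma calls of Acsm3, Plin1 and Cidec were lost in these 5 and with loess on the median profile itself. With 1 heart left out the count ran from 0 to 19. It was 19 without WT heart B, 8 without TG-PKR1 heart B and 0 without any 1 of the other 4. The cause was not tested. The median of the supply genes was 0.21 with 75th percentile scaling. The median of Fabp4, Fabp5 and Slc27a2 was -1.44 with the filter of 3 arrays above background, which leaves out Fabp5, and -0.89 to -0.57 with 1 heart left out.

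Signs turned in members with small differences. With 75th percentile scaling the difference was 0.059 for Acsl1 probe 2, 0.059 for Acsl1 probe 3, 0.036 for Cd36 probe 1, 0.17 for Cd36 probe 2 and 0.33 for Fabp3. With scan mode as a block the difference was 0.041 for Cd36 probe 2, 0.32 for Fabp3, -0.087 for Lpl probe 1, -0.16 for Slc27a1 probe 2 and -0.034 for Vldlr probe 2. With the authors' table the difference was 0.043 for Fabp3, -0.12 for Lpl probe 1 and -0.013 for Vldlr probe 2. With outlier spots kept the difference was 0.014 for Fabp3 and -0.15 for Lpl probe 1. With normexp and quantile normalization the difference was 0.025 for Fabp3, -0.013 for Slc27a1 probe 2 and -0.018 for Vldlr probe 2. With quantile normalization alone the difference was 0.058 for Fabp3, -0.0076 for Slc27a1 probe 2 and -0.0053 for Vldlr probe 2. With the processed signal the difference was -0.035 for Slc27a1 probe 2 and -0.066 for Vldlr probe 2. With the mean signal the difference was -0.0079 for Vldlr probe 2. Vldlr probe 1, Acsl1 probe 1 and Slc27a1 probe 1 kept their sign but came close to 0 with 1 heart left out, with ranges of -0.56 to -0.0029, 0.024 to 0.54 and 0.0029 to 0.61. The other ranges with 1 heart left out were -0.15 to 0.084 for Acsl1 probe 2, -0.32 to 0.047 for Acsl1 probe 3, -0.25 to 0.019 for Cd36 probe 1, -0.20 to 0.15 for Cd36 probe 2, -0.55 to 0.47 for Fabp3, -0.32 to 0.54 for Lpl probe 1, -0.085 to 0.22 for Lpl probe 2, -0.16 to 0.33 for Slc27a1 probe 2 and -0.14 to 0.13 for Vldlr probe 2.

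No paired analysis was possible because only 1 pair of hearts is joined across the groups, WT heart B and TG-PKR1 heart A on the shared slide. Slide as a random block could not be estimated, since only 1 slide held more than 1 array.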
